A study of Homo sapiens with 8 samples.

Results

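RNA levels after knockdown of RPS29 were measured by RNA-seq in the established cell line SH-SY5Y, which comes from a human neuroblastoma. The knockdown used a hairpin RNA (shRPS29) and the control another hairpin (shCONT), with 2 libraries in each group. The genes described are those with a mean of at least 10 CPM (counts scaled to a library total of 1000000) across these 4 libraries. They number 10260 of 17927 genes in the RNA-seq table and are called expressed genes below. The genes nearest the limit were IQCK and RPS28P7 (both 10.01 mean CPM) inside it, and NEK6 and PAPSS2 (both 9.993) outside it. Expressed genes hold between 98.35 and 98.5% of the counts of a library, and 10035 of them are protein-coding, 143 are long noncoding RNAs and 23 could not be matched to RefSeq. The labels give no hairpin sequence, no time after knockdown and no second hairpin, and they do not say whether replicates were separate cultures, so p-values measure only the spread between these libraries. The same series holds 4 Ribo-seq libraries of the same genotypes, used here only as a second readout.

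RPS29 is a protein of the small (40S) subunit of the ribosome. Ribosomal proteins are made in equal amounts and assembled with ribosomal RNA in the nucleolus, and loss of one can leave the others unassembled. Free large-subunit proteins are known to bind MDM2, the ligase that keeps the tumour suppressor p53 low. Most transcripts of ribosomal proteins, and some of translation factors, begin with a C followed by pyrimidines. This tract links their translation and stability to growth signalling.

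RNA-seq libraries held between 17539104 and 19156104 counts. Across expressed genes the log2 CPM difference between replicates had an SD of 0.1342 in the controls and 0.1785 in the knockdown, and both pairs differed by more than sampling noise (mean chi-square per gene 3.876 and 12.66), so no library was a copy of another. Of the 15 neuroblastoma markers examined, 14 were expressed genes, of which 2 were called higher and 5 lower (3 with either control library left out). With all 4 libraries these shares were 14.29% higher and 35.71% lower, against 18.7% and 20.7% of expressed genes. On plain library totals all 15 markers summed to 7888 and 8030 CPM in control cells and 7490 and 7691 after knockdown. Mesenchymal or Schwann-like markers summed to 320 and 296.4 CPM and to 325 and 382.2. Of 5 expressed, 2 were called higher and 2 lower (40% each). The part of these markers in the results below was not tested. The epithelial, blood and endothelial marker lists summed to between 21.47 and 41.43 CPM in any library, and no epithelial marker was an expressed gene. In bulk RNA, fewer cells of a type and less RNA per cell cannot be told apart. From here on, CPM values of single libraries are scaled with edgeR's TMM factors, and mean CPM over the 4 libraries stays on plain totals.

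RPS29 RNA was at 137 and 160 CPM in the control libraries and at 7.53 and 6.45 CPM in the knockdown libraries. Both knockdown values lay far below both controls. The log2 fold change was -4.40, with an SE of 0.115 and an edgeR quasi-likelihood adjusted p of 6.33e-12. The gene lies at chr14:49570988-49598710 (GRCh38.p14, RefSeq) and overlaps RN7SL1, at a mean of 13.6 CPM. The nearest tested gene before it, LINC00648, had a mean of 0.6184 CPM. The next after it, LRR1, had 25.1 and 26.0 CPM in control cells against 23.5 and 17.1 after knockdown, which did not pass the test (log2 fold change -0.33, edgeR adjusted p = 0.0776).

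The comparison asked which RNAs differ between the groups. Of 14723 genes tested with edgeR, 14.4% were called higher and 16.3% lower at an adjusted p below 0.05. Among the 10260 expressed genes, 1918 were called higher (18.7%) and 2128 lower (20.7%). With library totals in place of TMM the calls were 2708 higher and 1564 lower, and the median log2 fold change of expressed genes moved from 0.003402 to 0.07933. Both knockdown values lay above both controls in 3591 expressed genes (35%) and below both in 3719 (36.2%), and all 4046 called genes were among these. Most called changes were small: the median log2 fold change was 0.40 among genes called higher and -0.43 among those called lower. Only 40 rose and 88 fell more than 2-fold. In 26 genes the lower knockdown value was at least 2-fold above the higher control, and in 51 the higher knockdown value was at least 2-fold below the lower control. With control library 1 left out the calls dropped to 1080 higher and 1358 lower, and with control library 2 left out to 1100 and 1328.

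**Figure D1:**
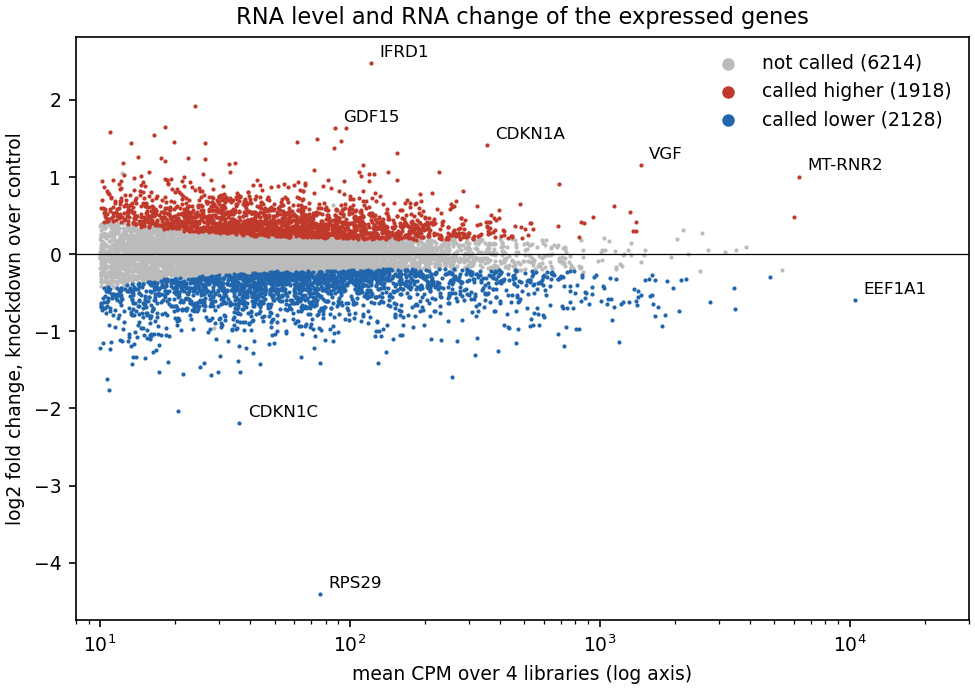
Each point is an expressed gene, with its mean CPM over the 4 libraries on a log axis and its log2 fold change (knockdown over control) on the other axis; red marks the 1918 genes called higher and blue the 2128 called lower. RPS29 stands lowest, at -4.40, and most called genes lie within 1 unit of 0.

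The largest increase among protein-coding genes was in IFRD1, a transcriptional coregulator induced by stress and differentiation signals. IFRD1 went from 35.1 and 37.4 CPM to 215 and 189, which is 2.48 on the log2 scale with an SE of 0.0869 (edgeR adjusted p = 2.27e-10). GDF15, a secreted stress cytokine, rose from 43.8 and 40.3 CPM to 120 and 141 (1.63). CDKN1A, which encodes the cyclin-dependent kinase inhibitor p21, rose from 196 and 187 CPM to 460 and 558 (1.41). GDF15 and CDKN1A are both known p53 targets. ZFAND2A, a stress-inducible zinc finger protein that acts with the proteasome, rose from 8.39 and 8.91 to 29.1 and 25.3 CPM (1.65). PDE10A, a cyclic nucleotide phosphodiesterase, rose from 8.73 and 7.91 to 24.8 and 23.7 CPM (1.54). STAC, an adaptor of calcium channels, rose from 47.5 and 48.9 to 129 and 138 CPM (1.47). Transcriptional regulators and a peptide hormone followed. ID4, an inhibitor of basic helix-loop-helix transcription factors, rose from 6.42 and 7.63 to 18.2 and 20.1 CPM (1.45). EGR1, an immediate early transcription factor, rose from 12.2 and 15.8 to 43.8 and 32.4 CPM (1.44). VIP, a neuropeptide, rose from 43.9 and 50.8 to 122 and 124 CPM (1.38). The other 3 of the 12 overlap another expressed gene and are uncertain, since it is not given whether counting used strand: ZACN (1.92) overlaps EXOC7, SAMD11 (1.64) overlaps NOC2L and TMEM79 (1.45) overlaps SMG5.

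The largest decrease after RPS29 was in CDKN1C, which encodes the cyclin-dependent kinase inhibitor p57. CDKN1C went from 60.4 and 60.1 CPM to 13.1 and 13.3, which is -2.19 on the log2 scale with an SE of 0.0974 (edgeR adjusted p = 4.47e-09). H2AX, the histone variant that is phosphorylated at DNA breaks, fell from 379 and 400 to 133 and 126 CPM (-1.59). It overlaps DPAGT1, at a mean of 69.1 CPM. In both genes the knockdown libraries lay close together and far from the controls. WNT6, a secreted WNT ligand, fell from 17.7 and 16.3 to 5.12 and 4.85 CPM (-1.77). TOX2, an HMG-box transcription factor, fell from 16.6 and 16.0 to 5.02 and 5.62 CPM (-1.61). VEGFA, the angiogenic growth factor, fell from 67.5 and 60.9 to 21.9 and 25.8 CPM (-1.43). WNT6 and VEGFA act outside the cell and TOX2 in the nucleus. SLC26A2, a sulfate transporter, fell from 44.0 and 45.3 to 14.6 and 16.5 CPM (-1.52). SNAP91, which acts in clathrin assembly at synapses, fell from 37.1 and 37.4 to 13.7 and 13.3 CPM (-1.46), and TSPAN13 (-1.56), ANKRD27 (-1.53) and SYT16 (-1.43) fell too. DIP2C (-2.04) differed between the knockdown libraries themselves, at 3.07 and 13.3 CPM against 32.3 and 34.3 in the controls, and was not called with DESeq2.

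**Figure D2:**
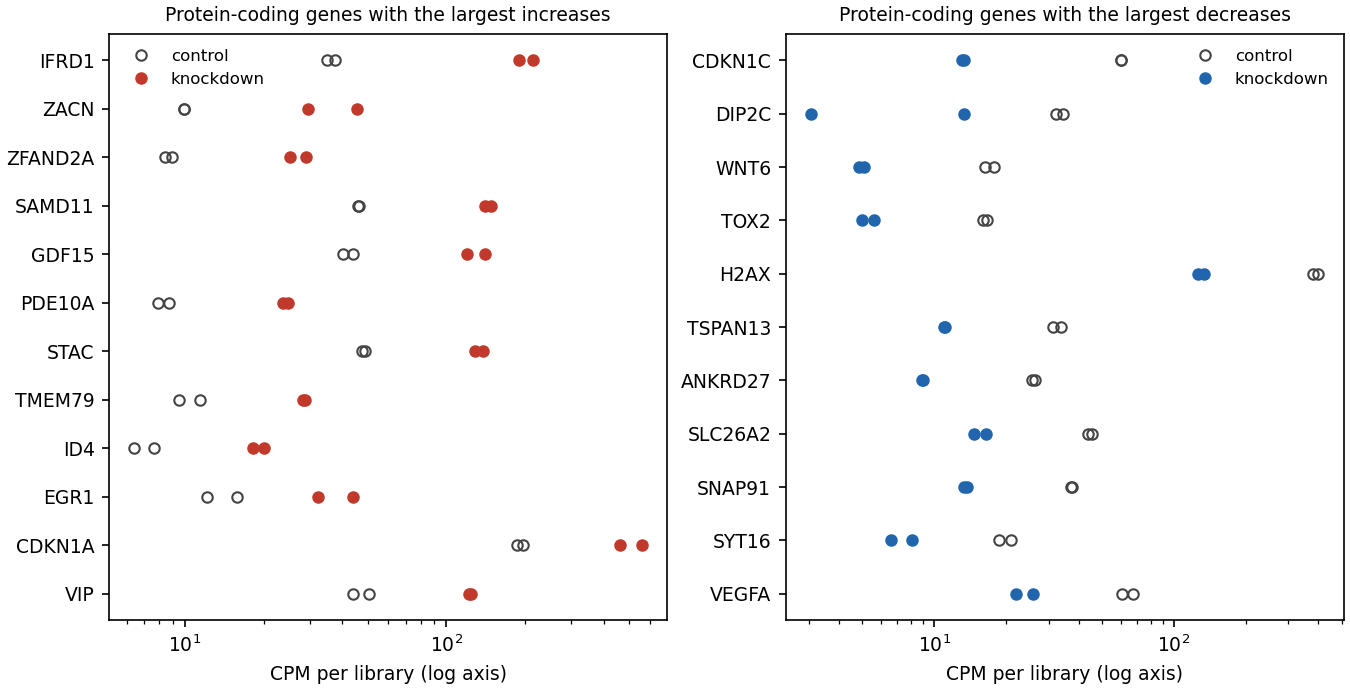
CPM in each of the 4 libraries, on a log axis, for the 12 coding genes that increased most (left) and 11 of the 12 that decreased most (right); open circles are control libraries and filled circles knockdown libraries. In the 23 genes plotted the filled circles lie outside the open ones, which is how they were chosen; DIP2C shows the widest spread between knockdown libraries, 3.07 and 13.3 CPM.

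Measured in CPM rather than in fold, the largest gains were in MT-RNR2, the mitochondrial large ribosomal RNA, from 4250 and 4027 CPM to 7250 and 9384 (log2 fold change 1.01, edgeR adjusted p = 1.22e-05). MT-CO1 (0.49), VGF (1.15) and MT-ND1 (0.55) followed. Of the 13 mitochondrially encoded protein genes 5 rose (38.46%, against 18.7% of expressed genes) and 0 fell, with a median of 0.26. Their summed level, 20960 and 17730 CPM in control cells and 20040 and 27520 after knockdown, overlapped between the groups. With knockdown library 1 left out all 13 were called higher, and with control library 2 left out 2 were, as with DESeq2. The largest losses were in EEF1A1, the elongation factor that brings aminoacyl-tRNA to the ribosome, at 12714 and 12705 CPM against 8857 and 7953 (-0.60), and in the tubulins TUBB (-0.71), TUBA1B (-0.62) and TUBA1A (-0.94). EEF1A1 and the tubulins have near-identical copies in the genome, between which reads can be split.

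Most transcripts of other ribosomal proteins fell. Of 31 small-subunit genes other than RPS29, 23 fell and 0 rose (median log2 fold change -0.54), against 20.7% called lower among expressed genes. Of 47 large-subunit genes, 40 fell and 0 rose (median -0.50). Together their share of all counts went from 7.23 and 7.505% in the controls to 6.032 and 5.169% in the knockdown. RPS9, a core protein of the small subunit, fell from 1026 and 994 CPM to 468 and 419 (-1.19). RPS25 (-0.92), RPS23 (-0.82), RPL23A (-0.94) and RPL37 (-0.92) followed. The genes that did not pass the test included RPS26 (-0.04), RPS2 (0.03), FAU (0.14) and RPL36 (-0.04). Ribosomal proteins have many processed pseudogenes, so single values are uncertain.

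Many genes for assembling ribosomes rose. Of 76 expressed ribosome assembly factors, 42 rose and 0 fell (median 0.25), against 18.7% called higher among expressed genes. RRP9, a component of the box C/D RNP that processes the small-subunit RNA, rose from 46.8 and 44.2 CPM to 105 and 88.0 (1.09). UTP4 (0.76) and LTV1 (0.71), which act in maturation of the small subunit, rose too. Among the 77 genes of the mitochondrial ribosome, 25 rose and 1 fell (median 0.18). The assembly and mitochondrial counts both dropped with control library 1, control library 2 or knockdown library 1 left out. With knockdown library 2 left out both counts rose. Among 48 translation factors 15 rose (31.25%) and 9 fell (18.75%), the latter near the 20.7% called lower among expressed genes. EIF4B, which helps the helicase EIF4A, fell from 551 and 567 CPM to 232 and 238 (-1.25), and EIF5, which triggers GTP hydrolysis at the start codon, rose from 195 and 212 to 368 and 351 (0.82). The 15 rising factors became 5 with control library 1 left out and 6 with control library 2 left out, and the 9 falling became 15 with knockdown library 1 left out.

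Of 37 expressed p53 targets, 22 rose and 5 fell (median 0.43), which is 59.46% and 13.51% against 18.7% called higher and 20.7% called lower among expressed genes. Their summed level went from 2024 and 2009 CPM to 2703 and 2951. GDF15 and CDKN1A had the largest increases, followed by PHLDA3, an inhibitor of AKT, from 70.3 and 69.1 to 135 and 157 CPM (1.06). BAX, a pore-forming death protein, rose by 0.49 on the log2 scale. CCNG2, a cyclin G, fell furthest (-1.0), and TP53INP1 (-0.66), CCNG1 (-0.54), ZMAT3 (-0.52) and APAF1 (-0.39) fell too. MDM2, the ligase that p53 itself induces, was at 0.01 and did not pass the test.

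Most mitotic genes fell. Among 65 genes of G2/M and mitosis, 56 had lower RNA (86.15%) and 0 higher (median -0.54), and 12 of 14 mitotic kinesins fell (85.71%, median -0.60). Among expressed genes 20.7% were called lower and 18.7% higher. MKI67, the proliferation marker, went from 380 and 361 CPM to 179 and 161 (-1.13). ASPM, a spindle pole protein, went from 183 and 180 to 87.8 and 86.4 (-1.06). CCNB1, the mitotic cyclin, went from 221 and 218 to 115 and 97.4 (-1.05). Of 57 genes of G1/S and DNA replication, 19 fell (33.33%) and 6 rose (10.53%), with a median of -0.16. There the counts were 11 and 2 with control library 1 left out and 12 and 3 with control library 2 left out, and 32 fell with knockdown library 1 left out. Among 10 expressed histone variants, 7 fell (70%) and 1 rose (10%), with H2AX furthest and CENPA, the centromeric histone, next (-0.96). CCND1, a G1 cyclin, rose from 884 and 906 to 1415 and 1343 CPM (0.62). The count of falling variants was 4 with either control library left out.

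Most genes of lipid synthesis fell. Of 26 expressed genes of cholesterol synthesis and uptake, 21 fell (80.77%) and 0 rose (median -0.55), against 20.7% called lower among expressed genes. HMGCS1, the enzyme that makes HMG-CoA, went from 88.3 and 86.7 CPM to 43.9 and 41.7 (-1.03), and INSIG1, which retains the sterol sensor in the endoplasmic reticulum, from 37.8 and 39.2 to 14.2 and 14.7 (-1.41). Of 19 genes of fatty acid synthesis, 12 fell (63.16%) and 1 rose (5.263%), with a median of -0.28. FADS2, a desaturase, fell furthest, from 369 and 363 to 197 and 208 CPM (-0.86). With control library 1 left out the fatty acid count was 6.

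Most tubulin genes fell, and more neuronal genes fell than rose. Of 10 expressed tubulins 8 fell (80%) and 0 rose (median -0.62), against 20.7% called lower among expressed genes. Their summed level went from 12740 and 13330 to 8308 and 7471 CPM. TUBB3, the neuronal beta tubulin, went from 963 and 977 to 513 and 498 CPM (-0.94). Of 43 genes of neuronal differentiation and synapse, 21 fell (48.84%) and 6 rose (13.95%), with a median of -0.23. STMN2, a microtubule regulator of growing axons, went from 920 and 922 to 457 and 439 CPM (-1.04). CTNNB1, which encodes beta-catenin, fell from 588 and 556 to 284 and 308 CPM (-0.95), while DKK1, a secreted WNT antagonist, rose from 62.7 and 65.3 to 131 and 117 (0.95). Over the WNT list 8 rose and 11 fell of 30, or 26.67% and 36.67% against 18.7% and 20.7% of expressed genes. With control library 1 or 2 left out, 2 and 3 neuronal genes and 5 and 4 WNT genes rose.

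More neuropeptide and immediate early genes rose than fell. Of 12 expressed neuropeptide and granin genes, 5 rose (41.67%) and 1 fell (8.333%), against 18.7% called higher and 20.7% called lower among expressed genes. VGF, a precursor of secreted peptides, went from 870 and 922 to 2012 and 1979 CPM (1.15), SCG2, a granin, from 78.6 and 84.1 to 171 and 163 (1.04), while CHGA fell by 0.47 on the log2 scale. With either control library left out, or with DESeq2, 3 rose, and with library totals in place of TMM 9 rose. Of 20 immediate early genes 11 rose (55%) and 1 fell (5%), with a median of 0.42. IER3, a regulator of cell death, rose from 10.02 and 10.5 to 20.5 and 28.3 CPM (1.25). Of 36 genes of the hypoxia response and glycolysis, 16 fell (44.44%) and 0 rose (median -0.15). Besides VEGFA, PDK1, a kinase that inhibits pyruvate dehydrogenase, fell from 19.7 and 20.8 to 7.48 and 8.60 CPM (-1.33), and NDRG1, a stress-responsive gene, fell by 1.13 on the log2 scale.

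**Figure D3:**
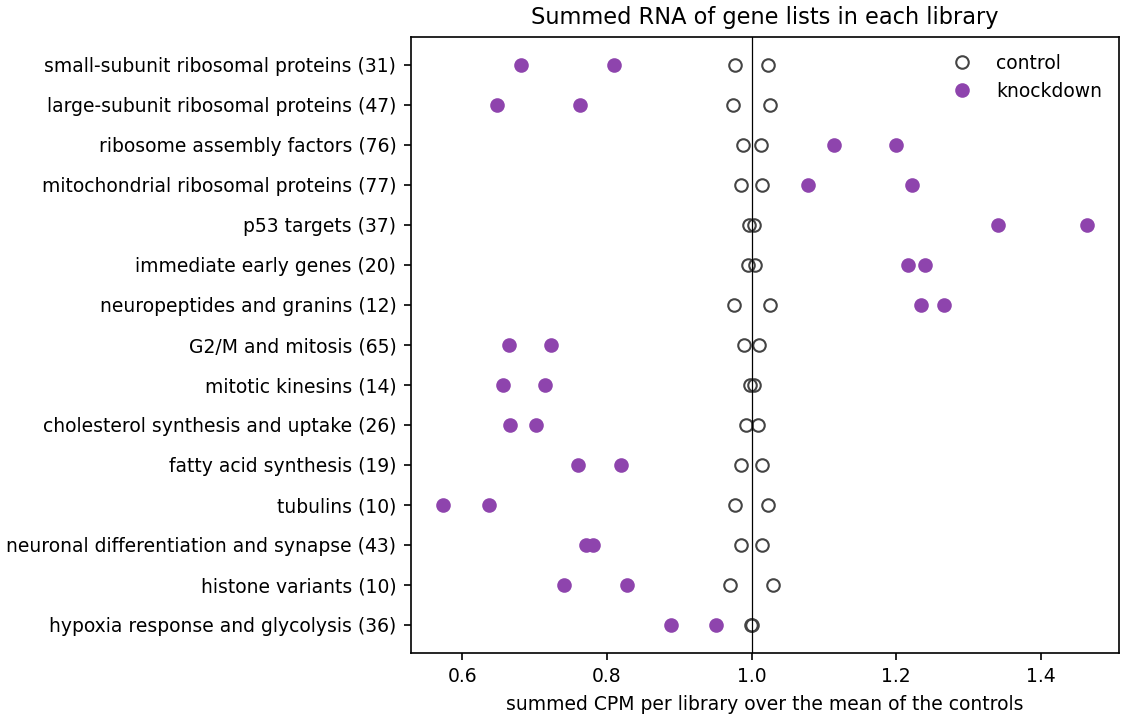
Summed CPM of the expressed members of 15 gene lists in each library, divided by the mean of the 2 controls; the number of members stands after each name, open circles are controls and filled circles knockdown libraries. The 15 lists were chosen after their values were seen, and in each both knockdown libraries lie on the same side of both controls, from tubulins (8308 and 7471 CPM against 12740 and 13330) to p53 targets (2703 and 2951 against 2024 and 2009); over all 62 lists with expressed genes this held in 47.

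Of 21 expressed noncoding hosts of small nucleolar RNAs, 9 rose and 3 fell, or 42.86% and 14.29% against 18.7% and 20.7% of expressed genes. SNHG1 rose from 42.3 and 33.9 to 122 and 93.5 CPM (1.498), and SNHG7 from 34.5 and 30.9 to 94.1 and 84.3 (1.45). SNHG5 fell from 176 and 204 to 72.0 and 71.0 CPM (-1.41). GAS5, another host, had 126 and 125 CPM in control cells and 149 and 130 after knockdown and did not pass the test (0.15). SNHG7 overlaps DIPK1B, and LINC03009 (1.59), the noncoding gene with the largest increase, overlaps POMZP3. Over all 143 expressed long noncoding RNAs, 23.78% were called higher and 11.19% lower, against 18.55 and 20.92% of the protein-coding genes. LINC01224 (-0.85) and TUBA1B-AS1 (-0.95) had the largest decreases after SNHG5. TUBA1B-AS1 lies next to TUBA1B and was not called with DESeq2.

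Calls varied with the length of the gene. Genes were split into 10 equal bins by span. In the bin with the shortest span (up to 5.627 kb), 25.78% were called higher and 17.19% lower. In the bin with the longest span (from 158.3 kb), 12.4% were called higher and 28.22% lower. Across the 10237 genes with a span in RefSeq, the Spearman rho of log2 fold change and span was -0.1691, a description across genes that share libraries. Mean CPM also varied along the bins, with a median of 50.63 in the shortest and 39.09 in the longest. In the top of 5 equal bins by mean CPM, 30.9% were called lower and 18.47% higher. Over all expressed genes 20.7% were called lower and 18.7% higher. On chromosome X, 27.07% of 362 genes were called lower, the largest share of any chromosome, and 12.43% higher. Chromosome 12 had the next largest share called lower (23.82%). Chromosomes 22 (12.35%) and 18 (12.59%) had shares called higher close to that of X. The part of library preparation or of introns in the relation to span was not tested.

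**Figure D4:**
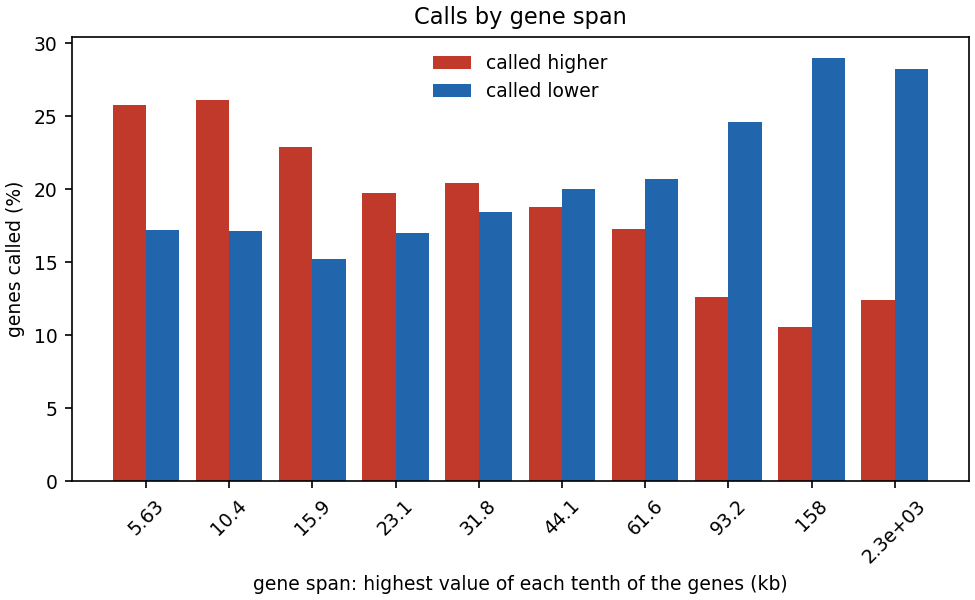
Percentage of expressed genes called higher (red) and lower (blue) in 10 equal bins of genes by span in RefSeq; the label under each pair of bars is the largest span in that bin in kb. Red bars go from 25.78 to 12.4% and blue bars from 17.19 to 28.22% between the shortest and the longest bin, but not steadily. Red bars are highest in bin 2 (26.15%) and lowest in bin 9 (10.55%). Blue bars are lowest in bin 3 (15.26%) and highest in bin 9 (29%).

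Promoter windows of 250 bases before to 50 after the start, from RefSeq (GRCh38.p14), were found for 8504 expressed genes. A total of 14 motifs were searched on both strands. The E-box is CACGTG and shares letters with the hypoxia element, which is ACGTGC. The cell-cycle element CHR is TTTGAA and the CCAAT box was searched as spelt. The E2F site is TTTCGCGC or else TTTGGCGC, the sterol element is TCACNCCA, and the cyclic AMP element CRE is TGACGTCA. The ATF4 composite is TGATGNAA, the AP-1 site is TGANTCA, and the EGR1 site is GCGGGGGCG. The NRF1 site is GCGCANGCGC, the ETS site is CCGGAAG, the TATA box is TATAAA, and the CArG box was searched too. A match is a description of letters in this window. The median GC content was 66% in genes called higher, called lower and not called.

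The ETS letters differed most. They were in 29.15% of promoters of genes called higher, 21.74% of genes not called and 14.65% of genes called lower, against 10.67% of all 27305 promoters in the table. With the ribosome assembly factors left out these shares were 29, 21.63 and 14.65%. Of 67 assembly factors with a promoter, 25 held them. Below, capitals mark the ETS letters, on either strand, in 2 assembly factors that rose.
UTP4, chr16:69132578-69132635, + strand: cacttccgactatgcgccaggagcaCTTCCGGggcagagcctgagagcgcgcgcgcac
LTV1, chr6:143843256-143843313, + strand: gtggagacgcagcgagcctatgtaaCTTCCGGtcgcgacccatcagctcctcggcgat

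The CHR letters, a known element of cell-cycle promoters, were in 12.59% of genes called lower, 8.345% of those not called and 7.207% of those called higher, against 15.43% of all promoters in the table. They were in 36 of 56 G2/M genes and in 9 of 14 mitotic kinesins with a promoter. Without these lists the shares were 10.6, 8.283 and 7.207%. The next lines show 3 mitotic genes that fell, with 1 match to the CHR letters in capitals.
MKI67, chr10:128126424-128126481, - strand: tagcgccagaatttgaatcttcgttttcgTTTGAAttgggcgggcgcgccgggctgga
CCNB2, chr15:59105088-59105145, + strand: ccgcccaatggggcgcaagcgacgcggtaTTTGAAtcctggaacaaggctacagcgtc
CENPA, chr2:26785998-26786055, + strand: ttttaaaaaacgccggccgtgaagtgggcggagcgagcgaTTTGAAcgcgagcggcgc

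A pyrimidine tract at the start, a C followed by at least 4 pyrimidines from the first transcribed base of the RefSeq model, was in 8.93% of genes called lower, 5.146% of those not called and 4.337% of those called higher, against 4.043% of all promoters. It was in 18 of 24 small-subunit and 25 of 38 large-subunit ribosomal protein genes with a promoter. Among translation factors with a promoter it was in 9 of 38 (23.68%). Without ribosomal protein genes the shares were 7.248, 4.964 and 4.337%. The tract definition was chosen after 9 had been looked at. In all 9 the share was highest in genes called lower, and when the tract could begin within 5 bases of the start it was 25.24, 22.16 and 22.58% in genes called lower, not called and called higher. The lines below give 15 bases on each side of the start, with the tract in capitals, for genes that fell.
EIF4B, chr12:53006441-53006470, + strand: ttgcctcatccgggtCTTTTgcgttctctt
RPS9, chr19:54200843-54200872, + strand: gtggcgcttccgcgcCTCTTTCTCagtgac
RPS25, chr11:119018329-119018358, - strand: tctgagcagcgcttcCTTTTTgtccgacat
TPT1, chr13:45341169-45341198, - strand: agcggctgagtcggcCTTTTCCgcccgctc
SNHG5, chr6:85678719-85678748, - strand: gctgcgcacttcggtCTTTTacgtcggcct

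TPT1, a growth-related protein, fell by 1.14 on the log2 scale in RNA. The sterol element was in 3 of 20 cholesterol genes with a promoter, against 3.128% of all expressed genes. The hypoxia element was in 10 of 33 hypoxia genes, against 8.96%. The shares of the other motifs in the 3 classes differed by less than those of ETS.

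**Figure D5:**
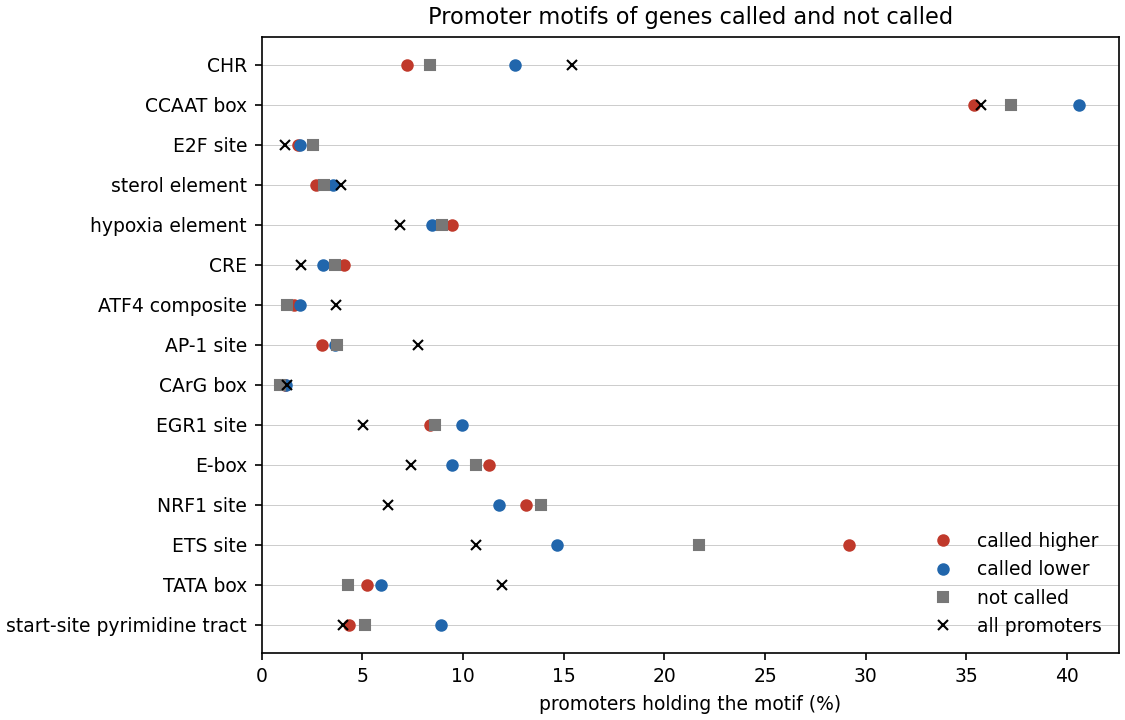
Percentage of promoters that hold each motif among genes called higher (red circles), called lower (blue circles), not called (grey squares) and among all 27305 promoters of the table (crosses). The classes stand furthest apart for the ETS site, at 29.15, 14.65 and 21.74%.

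Ribosome footprints are a readout from other libraries. Among expressed genes with a mean of at least 50 footprint counts, 625 of the genes called higher in RNA had a median footprint log2 fold change of -0.27, 1099 of those called lower had -0.52, and 2285 genes not called had -0.32. Footprints were above 0 in 37.12% of genes with higher RNA and 31.48% of those with lower RNA. In genes not called the share was 37.94%, so most genes of each of these classes lay below 0. A value of 0 is relative, set by TMM scaling over the Ribo-seq genes, and the medians varied with the count limit. At 20 counts they were -0.15 for higher RNA and -0.43 for lower RNA, and at 200 counts -0.49 and -0.68. Over all 4009 expressed genes with enough footprints, 63.96% were below 0 and the median was -0.37. The genes with the largest RNA changes differed from these classes. For RNA called lower by more than 2-fold, 37 genes had enough footprints, 17 of them above 0 (median -0.02). For RNA called higher by more than 2-fold, 9 of 12 were above 0 (median 0.51). The knockdown libraries differed: against the control mean, the median of genes with higher RNA was -0.53 in knockdown 1 and -0.05 in knockdown 2, and of genes with lower RNA -0.64 and -0.38. With Ribo-seq knockdown library 1 left out the median of genes with higher RNA was -0.0761, and with knockdown library 2 left out it was -0.638. Of the 37 G2/M genes with enough footprints, 34 were below 0 (median -1.30), as were 9 of 10 cholesterol genes (-1.41) and 6 of 7 tubulins (-1.73). Of 46 assembly factors 35 were below 0 (median -0.69), while the RNA median of the same 46 was 0.25. Of the 12 p53 targets 8 were above 0 (median 0.57). Ribo-seq medians are given with no test. Footprint totals were between 2630463 and 4375971 counts.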

How the data were processed

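RNA-seq and Ribo-seq counts per gene symbol, deposited as 1 table per assay, were used as deposited; they are whole-number counts with no normalization seen. The authors' tools, per the submitters' processing notes, include STAR, Salmon, Bowtie2, featureCounts and Trim Galore, on hg38. Their versions, order, annotation and strand setting: not given in the sources used here. The kit for RNA-seq marked strand, per the labels' protocols.

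Counts were tested per gene with edgeR 4.0.16 in R 4.3.3 (TMM, filterByExpr, quasi-likelihood F test, Benjamini-Hochberg over 14723 genes). Alternatives used limma 3.58.1 (voom), DESeq2 1.42.0, RLE factors, other filters and left-out libraries. With 2 libraries a group, an exact permutation test of a single gene cannot go below 1/3. The genes, lists and motifs were chosen with earlier results of these data known, and several list patterns were corrected after their counts had been seen (translation factors, mTORC1, mitochondrial ribosomal proteins, respiratory chain, ion channels, proteasome, solute carriers, protocadherins, hnRNP, lysosome), so counts are descriptions without a test. Of 14 motif types, 1 form each is printed; 12 other forms and 9 tract definitions were looked at. Named genes are RPS29; the 12 coding genes that increased most and the 12 that decreased most among called genes without overlap between groups; 3 noncoding genes each way; the 4 largest rises and falls in CPM; up to 3 per list; and neighbours of RPS29. Other genes were chosen after their values were seen. 1 of the decreases is not reported here. RefSeq matched 10237 of 10260 symbols, through unique synonyms where needed.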

Additional observations from a re-analysis of the deposited data

How the results depend on the processing

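Calls of expressed genes, 1918 higher and 2128 lower, stayed within 1.5 times under RLE factors, library totals, DESeq2 (1480 and 1772), limma-voom, other count filters and other CPM limits. Against a 1.5-fold change 58 were higher and 148 lower, because that test asks for a larger change. Leaving out 1 library gave between 1080 and 2508 higher and between 1328 and 2579 lower. Counts of genes whose groups do not overlap stayed within 1.5 times, between 4177 and 4531 higher and between 4254 and 4587 lower when a library was left out, where fewer values have to be apart. With the replicate block the calls were 1587 higher and 1816 lower. With the pairing crossed, added after seeing the data, they were 2325 and 2513. Across expressed genes, the deviations of same-numbered libraries had a weak negative correlation (-0.1921), and the labels do not say that numbers mark a shared batch. The footprint median of genes with higher RNA ranged from -0.638 to -0.0761, and of genes with lower RNA from -0.7662 to -0.4018, when a Ribo-seq library was left out; both were furthest from 0 without knockdown replicate 2, and the cause was not tested. No called named gene changed direction under any alternative run. Footprint libraries held fewer counts than RNA-seq libraries, which limits the precision of footprint values.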
